A study of Mus musculus with 32 samples.

Results

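The genes examined were 10 markers of oligodendrocyte precursor cells and of the newly formed oligodendrocytes that arise from them: Pdgfra, Cspg4, Ptprz1, Sox6, Gpr17, Bmp4, Neu4, Enpp6, Tcf7l2 and Itpr2. They were taken by gene name from a count table of 57010 genes, in which each of the 10 names occurred once, and all 10 were among the 20298 genes that passed a filter on low counts. The set was chosen by its lineage role and by a measured value, the p of Enpp6, which was among the smallest of all genes for the effect of the peptide D4F in E4/4 mice, so that comparison is given here as a description with no test. Bulk RNA was taken from brain homogenates of 32 humanized APOE mice, which carry human APOE, the gene of the main lipid-carrying apolipoprotein of the brain. There were 8 groups of 4 mice: E4/4 females given D4F, E4/4 males given D4F, E4/4 females given PBS, E4/4 males given PBS, and the same 4 groups of E3/3 mice, whose genotype the labels write as APOE4/4 or APOE3/3. All mice were about 10.5 months old when daily dosing began and 13.2 months old when the brain was taken, after 12 weeks. D4F is the 4F peptide, a mimetic of high-density lipoprotein, made of D-amino acids, and PBS is its saline vehicle. Every mouse carried human APOE, so no group with mouse Apoe was compared, and the labels do not say which part of the brain was homogenized.

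Oligodendrocyte precursors persist in the adult brain, where they divide under platelet-derived growth factor and give rise to cells that make myelin. A precursor that leaves the cycle first passes through a committed stage, marked by the receptor Gpr17, then becomes a newly formed oligodendrocyte, marked by Enpp6 and by the Wnt effector Tcf7l2, and only later makes the proteins of compact myelin. Several of these genes are also used elsewhere in the brain. Pdgfra is expressed by fibroblasts of the vessels and meninges, Cspg4 by pericytes, Ptprz1 and Itpr2 by astrocytes, Sox6 by some cortical interneurons, and Tcf7l2 by neurons of the thalamus and habenula. In a homogenate, fewer cells of a type and less RNA per cell cannot be told apart.

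Promoters from RefSeq on GRCm38.p6 were used for 9 of the 10 genes, and that of Gpr17 was not analysed here. The promoters of the 3 genes that were higher in E4/4 mice and of Enpp6 are shown, each as the 250 bases before the start on the plus strand, in lower case with motif matches in capitals.
Ptprz1, chr6:22875252-22875501: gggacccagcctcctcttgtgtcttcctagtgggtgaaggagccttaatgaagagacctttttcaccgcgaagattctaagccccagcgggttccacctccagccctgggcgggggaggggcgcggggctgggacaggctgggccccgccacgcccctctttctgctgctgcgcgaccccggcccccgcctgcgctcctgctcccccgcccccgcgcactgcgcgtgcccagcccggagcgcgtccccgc
Pdgfra, chr5:75152001-75152250: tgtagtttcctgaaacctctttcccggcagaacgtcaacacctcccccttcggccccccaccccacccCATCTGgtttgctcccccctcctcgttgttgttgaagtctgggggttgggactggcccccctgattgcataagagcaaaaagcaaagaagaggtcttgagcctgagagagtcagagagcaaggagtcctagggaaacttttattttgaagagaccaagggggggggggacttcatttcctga
Tcf7l2, chr19:55741560-55741809: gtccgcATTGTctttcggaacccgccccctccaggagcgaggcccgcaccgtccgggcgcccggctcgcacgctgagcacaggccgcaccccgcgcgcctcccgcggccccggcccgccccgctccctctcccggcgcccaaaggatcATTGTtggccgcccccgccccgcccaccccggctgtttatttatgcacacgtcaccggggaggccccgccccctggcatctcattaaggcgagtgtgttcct
Enpp6, chr8:46986637-46986886: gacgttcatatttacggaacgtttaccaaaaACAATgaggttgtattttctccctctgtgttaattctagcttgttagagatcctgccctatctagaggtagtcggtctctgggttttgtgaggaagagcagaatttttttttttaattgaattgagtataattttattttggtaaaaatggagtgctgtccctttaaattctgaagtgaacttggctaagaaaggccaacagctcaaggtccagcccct
Both strands were searched for the E-box CANNTG, which is bound by the oligodendrocyte factors Olig1 and Olig2 among others, the SOX core ACAAT and the TCF/LEF core CTTTGA. None of the printed matches overlap. The Pdgfra window held 1 E-box, the Tcf7l2 window 2 SOX cores and the Enpp6 window 1 SOX core, while the Ptprz1 window held none of the 3 motifs. Among all 32851 promoters of the same length, 66.2% held an E-box, 27.7% a SOX core and 13.8% a TCF/LEF core. The windows of Ptprz1 and Tcf7l2 were rich in G and C, at 71.6% and 72.8%, against 54.4% for Pdgfra, 38.4% for Enpp6 and a median of 52.4% for all promoters. The 3 genes that were higher in E4/4 mice shared none of these motifs.

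The libraries fell into a deeper class of 21, with 28.95 to 45.06 M counts, and a shallower class of 11, with 17.77 to 23.58 M counts. The shallower class held 2 of 8 E4/4 D4F, 1 of 8 E4/4 PBS, 2 of 8 E3/3 D4F and 6 of 8 E3/3 PBS libraries. The library numbers of the 2 genotypes did not overlap, so a processing difference between those runs of numbers and the genotype cannot be told apart. One library, E3/3 female PBS 1, stood apart most in genes of vessels and meninges: its 15 fibroblast and meninges genes summed to 403 TMM-scaled counts per M counts (CPM), against 72.4 to 212 CPM in the other libraries.

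All 10 genes were detected in every library, with raw counts between 21, for Bmp4, and 7257, for Ptprz1. The other lineage genes were present too: none of 20 further precursor and pan-lineage genes was at 0 in any library. Per kilobase of exon, the mean level over 32 libraries was highest for Ptprz1, a receptor-type tyrosine phosphatase of precursors, at 8.99 ± 1.29 CPM per kilobase (SD). The committed-stage receptor Gpr17 followed at 7.10 ± 1.30, and the PDGF receptor Pdgfra at 4.16 ± 0.581 CPM per kilobase. The sialidase Neu4 and the proteoglycan Cspg4 stood at 2.01 ± 0.263 and 1.80 ± 0.234. Bmp4, a secreted ligand of the bone morphogenetic protein family, the calcium-release channel Itpr2, the choline phosphodiesterase Enpp6 and the transcription factor Sox6 lay close together, at 1.32, 1.28, 1.16 and 1.02, and Tcf7l2 was lowest at 0.610 ± 0.195 CPM per kilobase. Neighbours in this order differed by more than the sum of their SDs only between Gpr17 and Pdgfra, between Pdgfra and Neu4, and between Sox6 and Tcf7l2. The spread over libraries was widest for Bmp4, with a coefficient of variation of 39.9%, and for Tcf7l2, with 31.9%, and narrowest for Itpr2, with 11.4%.

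**Figure D1:**
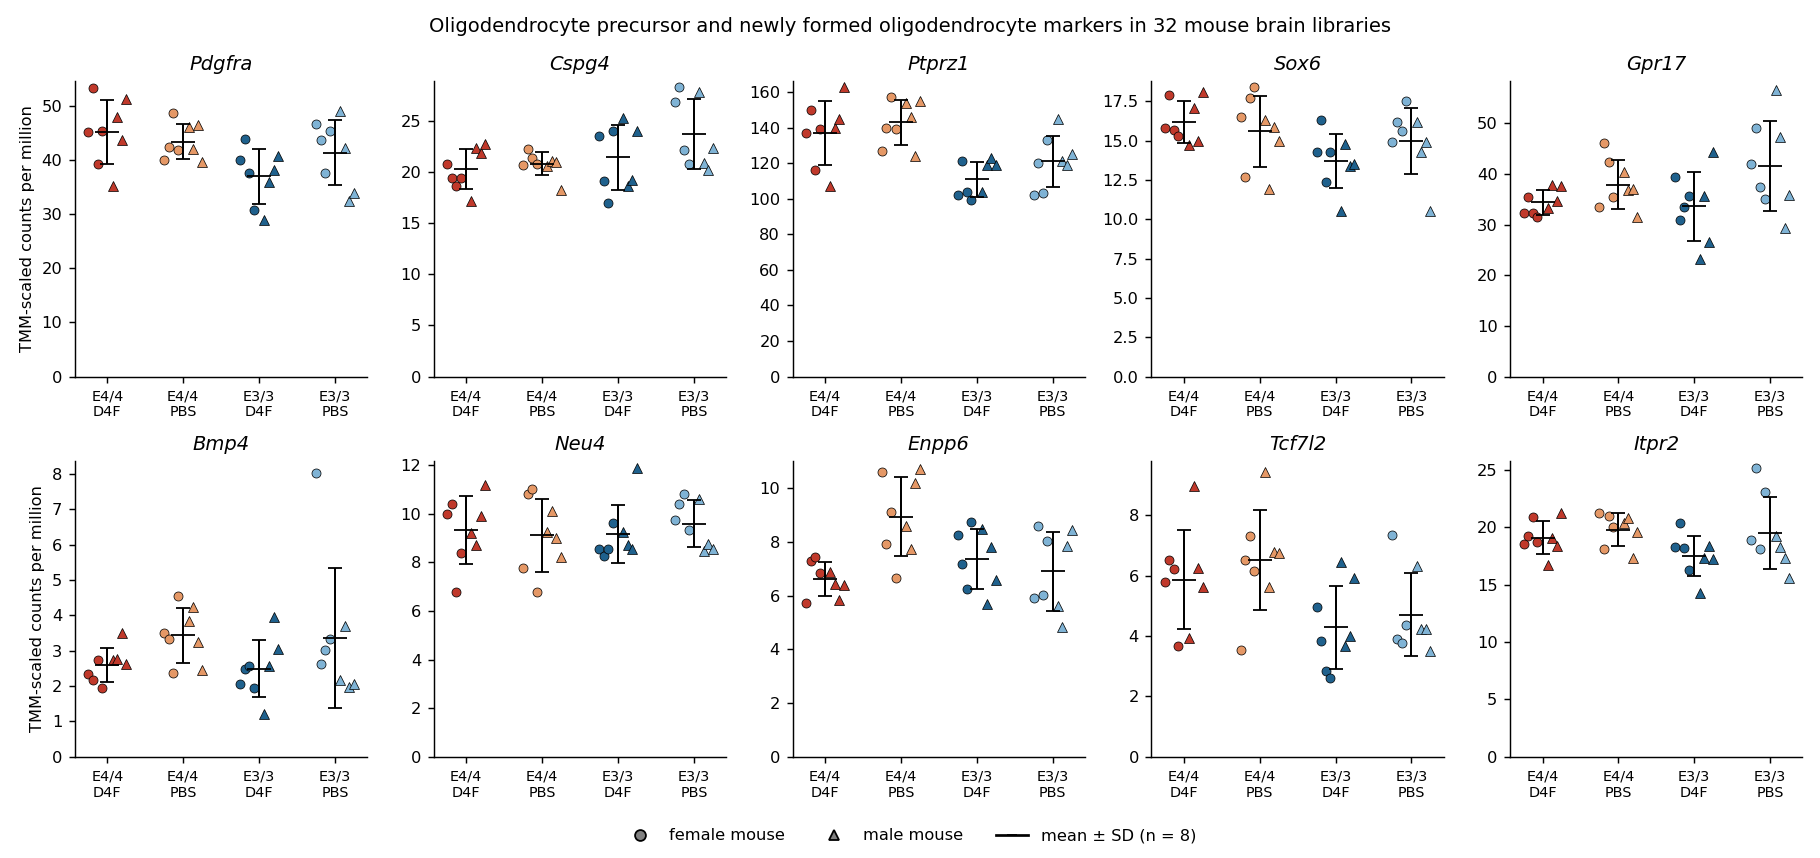
Level of each of the 10 genes in TMM-scaled CPM on a linear axis from 0, with circles for female and triangles for male mice and bars for the mean ± SD, in E4/4 D4F, E4/4 PBS, E3/3 D4F and E3/3 PBS mice (n = 8 each). Ptprz1 lies higher in E4/4 libraries with overlapping ranges, Enpp6 is highest in E4/4 PBS, and 1 E3/3 PBS library stands out for Bmp4 at 8.02 CPM.

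The first comparison asked how the 10 genes differed between E4/4 and E3/3 mice, averaged over both treatments and sexes. Ptprz1, Tcf7l2 and Pdgfra rose in E4/4 brains, by 1.21-fold, 1.38-fold and 1.13-fold, and no member fell. The other members ranged from -0.13 (Cspg4) to 0.15 (Sox6) on the log2 scale. Calls were made at an adjusted p below 0.05 in edgeR's quasi-likelihood test, adjusted by Benjamini-Hochberg over all genes tested. By that rule 3 of 10 members were called, against 23% of all genes tested, so the share was near the background. The median log2 difference was 0.091 for the members and 0.012 for all genes.

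Ptprz1, whose ligands include pleiotrophin, had a lowest, median and highest level of 107, 140 and 163 CPM in E4/4 D4F and 124, 143 and 157 CPM in E4/4 PBS libraries. In E3/3 mice it had 99.3, 112 and 123 CPM under D4F and 102, 120 and 145 CPM under PBS. The ranges overlapped, and both E4/4 medians lay above the highest E3/3 D4F library. The means were 140 ± 15.2 CPM in E4/4 and 116 ± 12.8 CPM in E3/3 mice (SD, n = 16 each), a log2 difference of 0.27 (SE 0.0545, adjusted p = 0.000783). The call held when each of the 32 libraries was omitted in turn. In the 21 deeper libraries alone the difference was 0.24 with an adjusted p of 0.0685.

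Pdgfra, the receptor that keeps precursors dividing, had 35.2, 45.3 and 53.4 CPM in E4/4 D4F and 39.6, 42.2 and 48.7 CPM in E4/4 PBS libraries as the lowest, median and highest level. The E3/3 values were 28.9, 37.9 and 43.9 CPM under D4F and 32.5, 43.0 and 49.1 CPM under PBS. The 2 PBS groups had almost the same median, and E3/3 D4F libraries were lowest. Over genotypes the means were 44.3 ± 4.75 CPM in E4/4 and 39.2 ± 5.83 CPM in E3/3 mice (SD, n = 16 each), a log2 difference of 0.18 (SE 0.0643, adjusted p = 0.0441). This call was close to the threshold: it was lost with a term for depth class (0.16, adjusted p = 0.128), with trends in GC content and length removed (0.15, adjusted p = 0.0795), in the deeper libraries alone (0.20, adjusted p = 0.114) and when any of 13 libraries was omitted. Those 13 fits, with differences of 0.156 to 0.179 and adjusted p up to 0.0847, were without E4/4 female D4F 1 or 2, E4/4 male D4F 2 or 4, E4/4 female PBS 3, E4/4 male PBS 1 or 3, E3/3 female D4F 4, E3/3 male D4F 1 or 2, E3/3 female PBS 3, or E3/3 male PBS 3 or 4.

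The other precursor genes did not pass the test. Sox6, a transcription factor that holds precursors undifferentiated, averaged 15.9 ± 1.83 CPM in E4/4 and 14.3 ± 1.98 CPM in E3/3 mice (SD, n = 16 each), a log2 difference of 0.15 (adjusted p = 0.0970). It passed only without E4/4 female PBS 2, at 0.18 (adjusted p = 0.0351). Cspg4, the NG2 proteoglycan of the precursor surface, averaged 20.5 ± 1.57 CPM in E4/4 and 22.5 ± 3.40 CPM in E3/3 mice, a log2 difference of -0.13 (adjusted p = 0.121). Of the 4 precursor genes, Cspg4 was the one below 0. For Cspg4, the gene with the highest GC content of the 10 at 59.2%, the difference equalled the median of -0.13 over the 886 genes within 1 GC point of it. Ptprz1, at 44.5% GC, had 0.27 against a median of 0.07 over the genes within 1 GC point of it.

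Of the committed-stage genes, Gpr17 and Neu4 were close to equal between genotypes. Gpr17, which restrains maturation while it is expressed, averaged 36.2 ± 4.10 CPM in E4/4 and 37.6 ± 8.71 CPM in E3/3 mice, a log2 difference of -0.05 with a 95% interval from -0.21 to 0.11. Neu4, which removes sialic acid from glycans, had -0.02 with an interval from -0.16 to 0.12. The interval for Bmp4, a ligand that inhibits oligodendrocyte differentiation, was wider, from -0.23 to 0.36 around 0.07. The Bmp4 difference was 0.191 without E3/3 female PBS 1. None of the 3 passed, with adjusted p from 0.701 to 0.875.

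Of the newly formed markers, Tcf7l2 was the one that passed. It had a lowest, median and highest level of 3.66, 6 and 8.99 CPM in E4/4 D4F and 3.54, 6.65 and 9.45 CPM in E4/4 PBS libraries. The E3/3 values were 2.60, 3.92 and 6.45 CPM under D4F and 3.49, 4.23 and 7.36 CPM under PBS. The E4/4 medians lay above the E3/3 medians, with wide overlap of the libraries. The means were 6.20 ± 1.63 CPM in E4/4 and 4.50 ± 1.35 CPM in E3/3 mice (SD, n = 16 each), a log2 difference of 0.47 (SE 0.136, adjusted p = 0.0136), called in each of 32 fits without 1 library. It was not called in the deeper libraries alone (0.53, adjusted p = 0.0551).

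Genes of neurons that also use Tcf7l2 were set beside it. Of 13 thalamus and habenula genes tested, 2 rose and 2 fell in E4/4 mice, beside 10.9% of all genes higher and 12.2% lower. Their median log2 difference was 0.03. Slc17a6, the vesicular glutamate transporter of subcortical neurons, and Calb2 rose, by 0.64 and 1.05, and Nrgn and Ramp3 fell, by 0.72 and 0.52 on the log2 scale. The list summed to 568 to 1300 CPM in E4/4 and 684 to 1780 CPM in E3/3 libraries, most of it Nrgn, which cortical neurons express too. The habenula gene Pou4f1 did not pass the filter. The part of these neurons in the difference of Tcf7l2 was not tested.

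The enzyme Enpp6, which cleaves choline-containing phosphodiesters, averaged 7.77 ± 1.62 CPM in E4/4 and 7.14 ± 1.29 CPM in E3/3 mice, a log2 difference of 0.11 with a 95% interval from -0.06 to 0.28 (adjusted p = 0.396). That difference equalled the median of 0.11 over the 1429 genes within 1 GC point, and was -0.0138 with GC and length trends removed. Itpr2, which releases calcium from internal stores, averaged 19.4 ± 1.44 CPM in E4/4 and 18.5 ± 2.67 CPM in E3/3 mice (0.07, adjusted p = 0.311). Over all genes, the genotype difference ran against GC content, with r = -0.271 across 19238 genes, which are not independent replicates. With the GC and length trends removed, 1027 genes were called higher and 2398 lower in E4/4 mice, against 2211 higher and 2467 lower without that step.

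**Figure D2:**
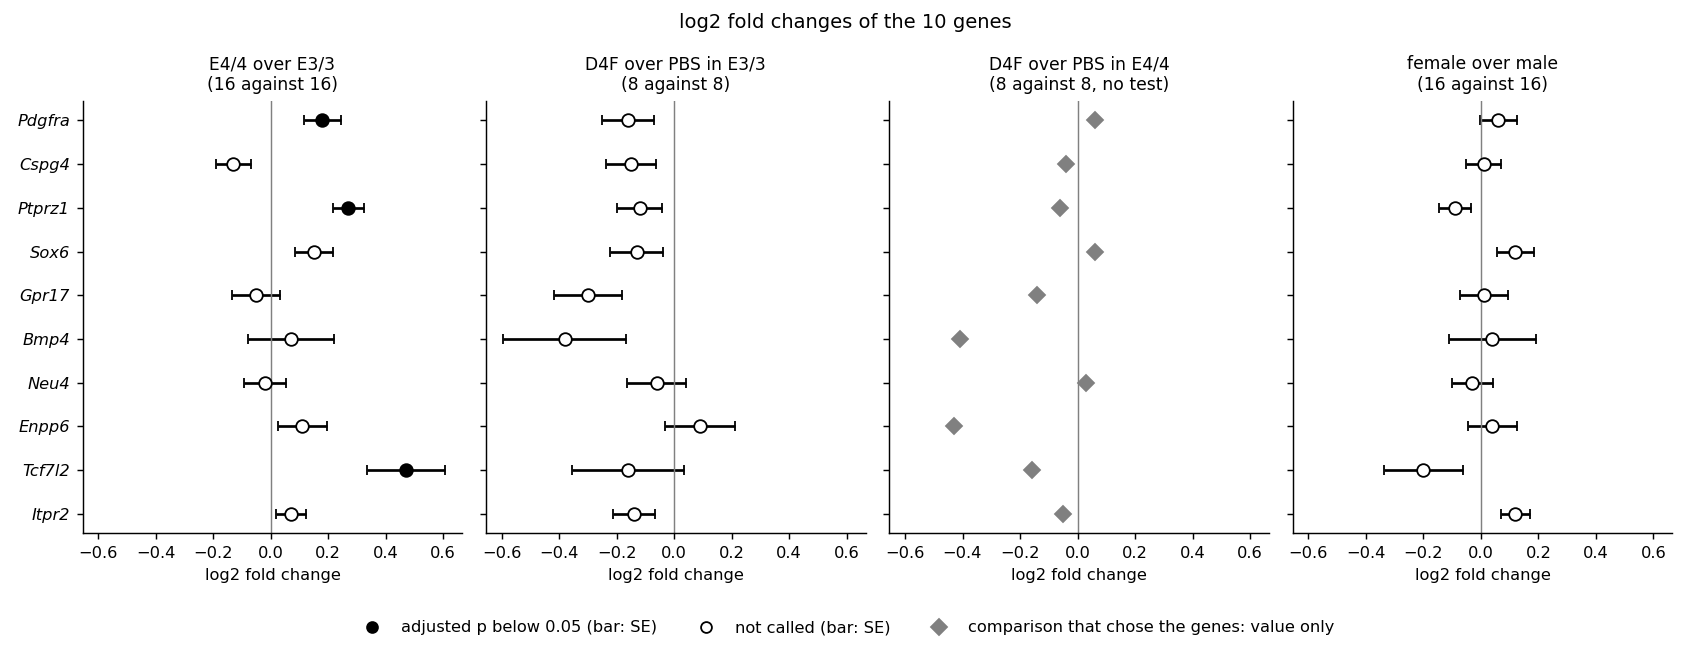
Log2 fold change of each of the 10 genes, in panels for E4/4 over E3/3, D4F over PBS in E3/3, D4F over PBS in E4/4 and female over male mice, with bars of 1 SE, filled points for an adjusted p below 0.05, and grey diamonds with no bar where the comparison chose the set. Ptprz1, Tcf7l2 and Pdgfra are filled for genotype, and the E4/4 D4F points of Enpp6 and Bmp4 lie lowest at -0.43 and -0.41.

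Within PBS mice, 1 of 9 members tested passed, against 20.4% of all genes. Enpp6 has no test here, because the E4/4 PBS libraries also entered the comparison that chose it, and the values of the other 9 members share those libraries. Ptprz1 rose by 0.24 in E4/4 PBS over E3/3 PBS mice (SE 0.0771, adjusted p = 0.0257), and Tcf7l2 had 0.47 (adjusted p = 0.0810). The Ptprz1 call was lost without E4/4 female PBS 3 (0.22, adjusted p = 0.0525), E3/3 female PBS 1 (0.21, adjusted p = 0.0532), E3/3 female PBS 3 (0.23, adjusted p = 0.0516) or E3/3 male PBS 2 (0.23, adjusted p = 0.0503), with a term for depth class (0.18, adjusted p = 0.205) and after removal of the GC and length trends (0.13, adjusted p = 0.181). Tcf7l2 passed without E4/4 female PBS 1 (0.56, adjusted p = 0.0314), E3/3 female PBS 1 (0.61, adjusted p = 0.0233) or E3/3 male PBS 1 (0.58, adjusted p = 0.0423).

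Under D4F, 0 of 9 members passed in E4/4 over E3/3 mice by edgeR, against 0.00493% of all genes. At an unadjusted p below 0.05 there were 4 of 9, against 13.8% of all genes, and DESeq2 called 1 and limma-voom 0 after adjustment. Ptprz1 had 0.30 (adjusted p = 0.111), Pdgfra 0.28 (adjusted p = 0.172), Sox6 0.25 (adjusted p = 0.231) and Tcf7l2 0.46 (adjusted p = 0.278). The Pdgfra difference was thus 0.28 under D4F and 0.07 in PBS mice, without a test of that change. Enpp6 stood at -0.15 under D4F and 0.37 in PBS mice, again with no test.

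The next comparison asked what D4F did in E3/3 mice, whose libraries did not enter the comparison that chose Enpp6. None of the 10 members passed, against 3.25% of all genes. That background of 659 genes ran from 99, without E3/3 male PBS 1, to 2188, without E3/3 female PBS 4, when 1 library was left out. In edgeR 1 of 10 had an unadjusted p below 0.05, against 19.5% of all genes, and neither DESeq2 nor limma-voom called any after adjustment. The values lay below 0 for 9 of 10 members, against 48.6% of all genes, with medians of -0.145 for the members and 0.006 for all genes. Members whose levels move together across libraries do not count as separate observations of that direction.

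Gpr17 had the smallest p of the 10. Its lowest, median and highest level was 23.2, 34.5 and 44.4 CPM in E3/3 D4F and 29.3, 39.7 and 56.7 CPM in E3/3 PBS libraries, a wide overlap. The means were 33.6 ± 6.82 CPM with D4F and 41.6 ± 8.94 CPM with PBS (SD, n = 8 each), a log2 difference of -0.30 (SE 0.118, adjusted p = 0.141). It passed without E3/3 male D4F 4 (-0.40, adjusted p = 0.0438) or without E3/3 male PBS 3 (-0.38, adjusted p = 0.0375). Of the E3/3 libraries, 2 of 8 with D4F and 6 of 8 with PBS were in the shallower class. In the deeper libraries alone, with 6 against 2, the Gpr17 difference was 0.14. With depth class as a term it was -0.29 (adjusted p = 0.397), and no gene of the table was then called.

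Bmp4 had 1.22, 2.52 and 3.96 CPM in E3/3 D4F and 1.97, 2.82 and 8.02 CPM in E3/3 PBS libraries as the lowest, median and highest level. The highest value is from E3/3 female PBS 1, the library with the most fibroblast RNA. The log2 difference was -0.38 (SE 0.214, adjusted p = 0.341) and became -0.13 without that library. All 15 fibroblast and meninges genes lay below 0 in the same comparison, with a median of -0.48. Of the 15, 5 reached an unadjusted p below 0.05 in edgeR, against 19.5% of all genes. None was called there, in DESeq2 or in limma-voom. Their sums ran from 72.4 to 139 CPM with D4F and from 92.0 to 403 CPM with PBS, with medians of 120 and 123 CPM. The 403 CPM was in E3/3 female PBS 1, and the list's median difference without that library is not given here. The part of these cells in the Bmp4 values was not tested.

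Enpp6 was the 1 member above 0 with D4F in E3/3 mice. Its lowest, median and highest level was 5.69, 7.50 and 8.74 CPM in E3/3 D4F and 4.83, 6.93 and 8.60 CPM in E3/3 PBS libraries. The E3/3 PBS libraries fell into 4 between 4.83 and 6.02 CPM and 4 between 7.83 and 8.60 CPM, and the D4F libraries covered the same span. The difference was 0.09 on the log2 scale, with a 95% interval from -0.15 to 0.33 (adjusted p = 0.765). Pdgfra, Cspg4, Itpr2, Sox6, Ptprz1 and Tcf7l2 lay between -0.16 and -0.12, with adjusted p from 0.290 to 0.731, and Neu4 at -0.06.

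In E4/4 mice, the comparison that chose the set, D4F gave the following values. Enpp6 had 5.74, 6.64 and 7.43 CPM in E4/4 D4F and 6.66, 8.84 and 10.7 CPM in E4/4 PBS libraries as the lowest, median and highest level. All but the lowest of the PBS libraries lay above the highest D4F library. The means were 6.61 ± 0.619 CPM with D4F and 8.93 ± 1.47 CPM with PBS (SD, n = 8 each), a log2 difference of -0.43. By p, Enpp6 ranked 6 of 20298 genes and 5 among those lower with D4F, where its neighbours were Fam177a2 at rank 4 with -0.72 and Gm43187 at rank 6 with -1.69. No gene of the table was called in this comparison by edgeR, DESeq2 or limma-voom (0%), where 382 genes (1.88%) reached an unadjusted p below 0.05 in edgeR, 425 in DESeq2 and 590 in limma-voom.

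Bmp4 was nearly as far below 0 as Enpp6. It averaged 2.60 ± 0.475 CPM in E4/4 D4F and 3.44 ± 0.773 CPM in E4/4 PBS libraries (SD, n = 8 each), a log2 difference of -0.41. Tcf7l2 had -0.16, Gpr17 -0.14 and the other 6 members lay between -0.06 and 0.06, so the precursor genes Pdgfra, Sox6, Cspg4 and Ptprz1 were close to equal. In all, 7 of 10 were below 0, against 49.2% of all genes. Among mature myelin genes, all 28 lay below 0 with a median of -0.13, and their sums ran from 6150 to 8390 CPM with D4F and from 6880 to 9100 CPM with PBS. Their mean moved with Enpp6 within groups (r = 0.767), and Enpp6 was chosen by its value in this comparison. The direction of the myelin genes is thus no separate observation. The E4/4 D4F and E3/3 D4F comparisons have no libraries in common. Side by side, Enpp6 had -0.43 in E4/4 and 0.09 in E3/3 mice, Bmp4 -0.41 and -0.38, and Gpr17 -0.14 and -0.30, and the difference between genotypes was not tested because the E4/4 libraries chose the set.

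No member passed between females and males. Averaged over genotype and treatment, 0 of 10 passed in females over males in any of edgeR, DESeq2 and limma-voom, against 0.0739% of all genes in edgeR. An unadjusted p below 0.05 was found for 1 of 10, against 5.47% of all genes. That gene was Itpr2, with 19.8 ± 2.20 CPM in females and 18.2 ± 1.87 CPM in males (SD, n = 16 each), a log2 difference of 0.12 (adjusted p = 0.905). The others ranged from -0.20 (Tcf7l2, 95% interval from -0.47 to 0.07) to 0.12 (Sox6). For Gpr17 the interval ran from -0.15 to 0.17, and for Cspg4 from -0.11 to 0.12.

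The test of whether the genotype difference varied with sex called 0 of 10 members and no gene at all (0%), with 0 of 10 members and 1280 genes (6.31%) at an unadjusted p below 0.05 in edgeR, and 1 gene of the table called by DESeq2 and 0 by limma-voom. For the effect of D4F in E3/3 mice, the test of a difference between sexes also called no member and no gene (0%), with 738 genes (3.64%) at an unadjusted p below 0.05 and 0 called by DESeq2 or limma-voom. Bmp4 was the 1 member at an unadjusted p below 0.05. It averaged 2.27 ± 0.303 CPM with D4F and 4.25 ± 2.53 CPM with PBS in E3/3 females, against 2.70 ± 1.14 CPM with D4F and 2.48 ± 0.820 CPM with PBS in E3/3 males (SD, n = 4 each). The female effect minus the male effect was -1.04 (SE 0.428, adjusted p = 0.976), and -0.54 without E3/3 female PBS 1.

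Whether the 10 genes vary together was examined within the 8 groups, as the deviation of each library from its group mean in log2 CPM over 32 libraries. All such deviations come from the same libraries and share their scaling. Of 45 pairs, 9 passed after Benjamini-Hochberg adjustment over the 45 in a permutation test within groups with 100000 permutations, 8 of them positive. The median r was 0.202, 30 of 45 were above 0, and the range was -0.566 to 0.682.

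The strongest pair joined 2 precursor genes that were called between genotypes, Pdgfra and Ptprz1, with Pearson's r = 0.682 (permutation, adjusted p = 0.00720) and Spearman's rho = 0.621 (permutation, adjusted p = 0.0181). It was 0.593 without the 2 libraries farthest from the median of Pdgfra, 0.709 in the deeper and 0.663 in the shallower libraries. Itpr2 and Ptprz1 had r = 0.633 (rho = 0.612, permutation adjusted p = 0.0216 and 0.0211), with r = 0.626 without the 2 farthest libraries, 0.649 in the deeper and 0.661 in the shallower ones. Gpr17 and Pdgfra, the receptors of adjoining stages, had r = 0.606 (rho = 0.560, permutation adjusted p = 0.0263 and 0.0256), with 0.538 without the 2 farthest libraries and 0.475 and 0.807 in the deeper and shallower ones. Pdgfra was in 4 of the 9 pairs that passed, with Itpr2 and Sox6 as well, both at 0.542, and Itpr2 and Sox6 were also linked to each other, at 0.529.

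Neu4 was linked to Gpr17, at 0.524, and to Cspg4, at 0.442, which both also passed. Enpp6 and Bmp4, the members with the lowest values for D4F in E4/4 mice, gave the 1 negative call. Their r was -0.566 (permutation, adjusted p = 0.0263) and rho was -0.586 (permutation, adjusted p = 0.0211), with r = -0.517 without the 2 farthest libraries and -0.527 and -0.594 in the deeper and shallower ones. Within a group, libraries with more Enpp6 tended to have less Bmp4.

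**Figure D3:**
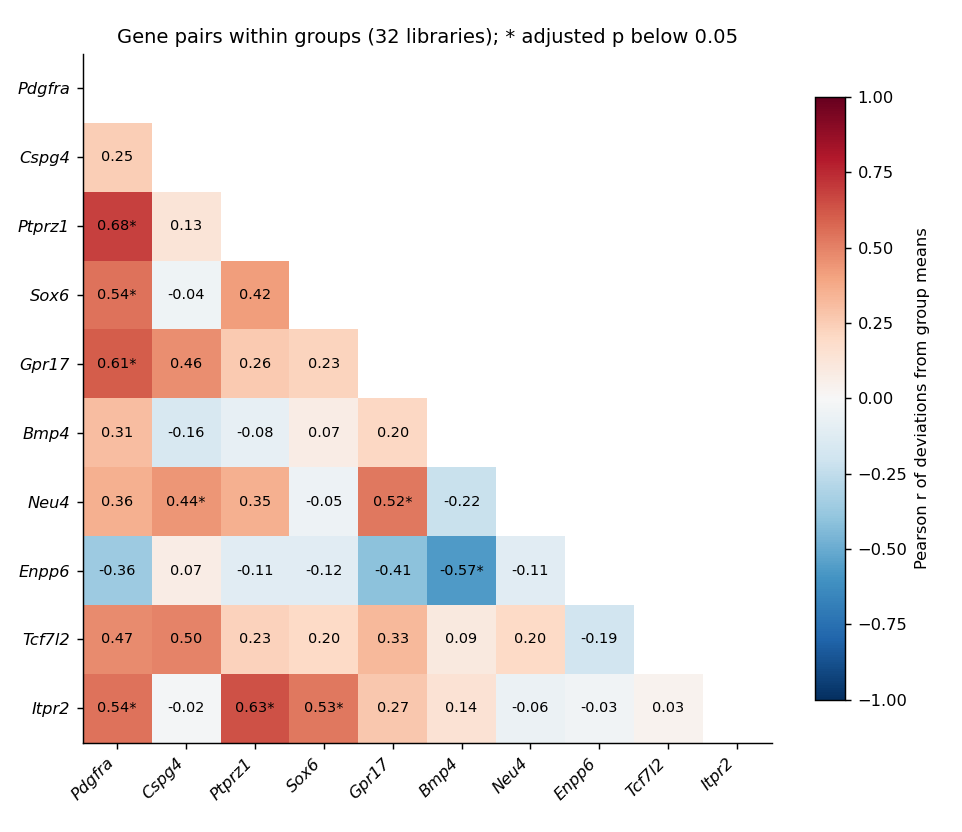
Pearson's r between each pair of the 10 genes over 32 libraries, from deviations from the group means in log2 CPM, as a coloured grid with a scale from -1 to 1 and a star where the adjusted p was below 0.05. The Pdgfra column holds 4 of the 9 starred pairs, and Enpp6 with Bmp4 is negative at -0.566.

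Enpp6 was then set against the later stage of its lineage, and Bmp4, Pdgfra, Tcf7l2 and Cspg4 against markers of another cell type, 5 relations in all, again within groups with 100000 permutations and adjusted over the 5. Ptprz1, Itpr2 and Sox6 were not set against astrocyte or interneuron genes in this way. For Enpp6, the list was 28 genes of mature myelin. Its r with their mean was 0.767 (permutation, adjusted p = 0.00015), rho was 0.762 (permutation, adjusted p = 0.0003), and all 28 genes had an r above 0, from 0.0998 to 0.781. Without the 2 farthest libraries r was 0.749, and it was 0.843 in the deeper and 0.719 in the shallower libraries.

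Bmp4 followed the fibroblast and meninges list, with r = 0.773 (permutation, adjusted p = 0.00095) and rho = 0.747 (permutation, adjusted p = 0.000325), and all 15 genes had an r above 0. Without the 2 farthest libraries r was 0.654, and it was 0.650 in the deeper and 0.847 in the shallower ones. Pdgfra was more loosely tied to the same list, with r = 0.398 (permutation, adjusted p = 0.0348), rho = 0.422 (permutation, adjusted p = 0.0354) 0.469 without the 2 farthest libraries, and 0.343 and 0.475 in the deeper and shallower ones. Of the 15 genes, 4 rose in E4/4 mice and none fell, beside 10.9% of all genes higher and 12.2% lower. Their median was 0.35, and the sums were 124 to 212 CPM in E4/4 and 72.4 to 403 CPM in E3/3 libraries. Dcn, a proteoglycan of fibroblasts, rose by 0.68 (adjusted p = 0.00290). The part of fibroblasts in the Pdgfra difference was not tested.

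Tcf7l2 followed the thalamus and habenula list with r = 0.640 (permutation, adjusted p = 0.00240) and rho = 0.579 (permutation, adjusted p = 0.00498), with 0.506 without the 2 farthest libraries and 0.626 and 0.665 in the deeper and shallower ones. That list was split: 8 of its 13 genes had an r above 0, among them Zfhx3 at 0.681, Gbx2 at 0.604, Tac2 at 0.503 and Prkcd at 0.465. The rest lay below 0: Nrgn at -0.639, Rora at -0.507, Ramp3 at -0.486, Lef1 at -0.383 and Plekhg1 at -0.363. Cspg4 with 12 pericyte and smooth muscle genes did not pass, at r = 0.343 and rho = 0.367 (permutation, adjusted p = 0.119 and 0.0575), with r = 0.247 without the 2 farthest libraries and 0.596 and -0.0217 in the deeper and shallower ones.

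**Figure D4:**
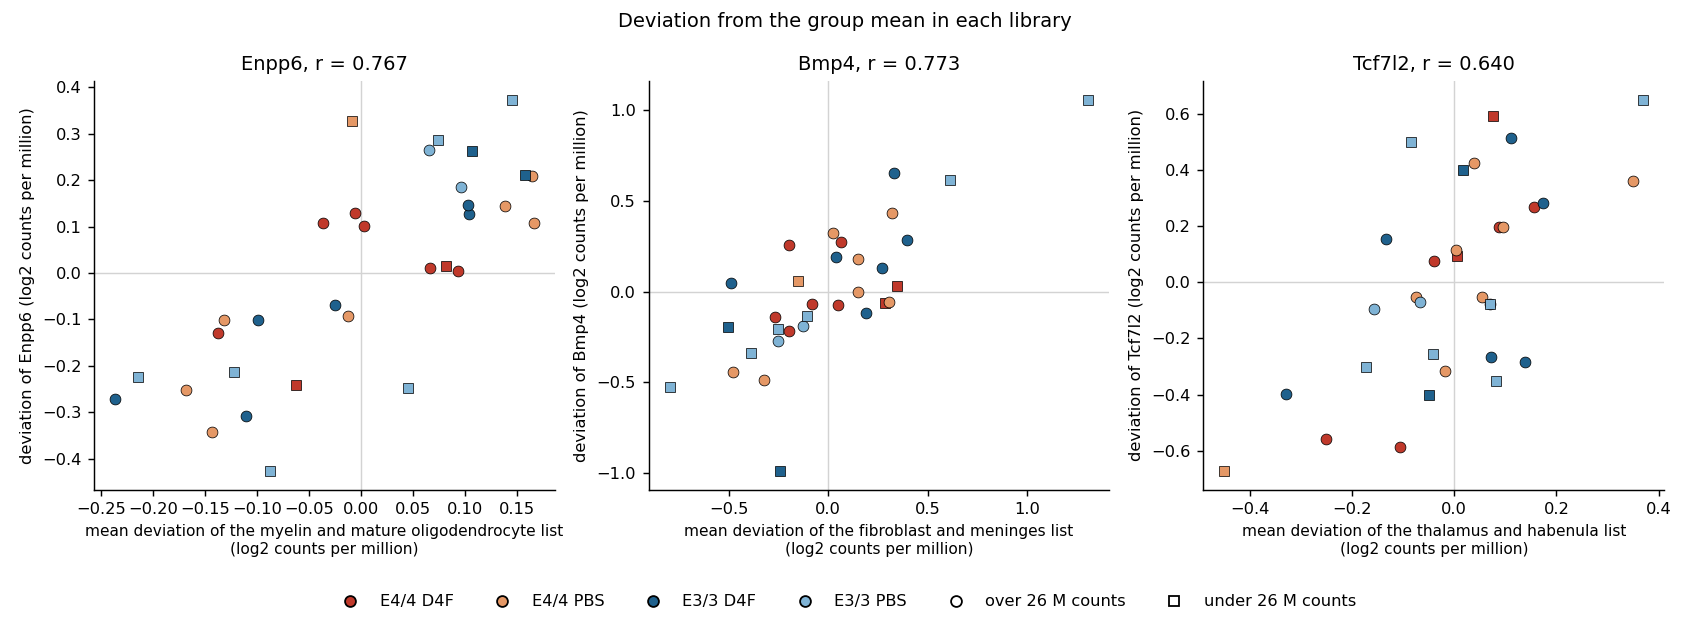
Deviation of a gene from its group mean (vertical, log2 CPM) against the mean deviation of a marker list (horizontal, log2 CPM), with 1 point per library coloured by genotype and treatment, squares for the shallower class, for Enpp6 and myelin, Bmp4 and fibroblasts, and Tcf7l2 and thalamus. The points rise from lower left to upper right in each panel, with r of 0.767, 0.773 and 0.640, and 1 E3/3 PBS library lies far to the upper right for Bmp4.

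The genes most alike in the same deviations were looked up among the 14038 genes whose mean log2 CPM was 1 or more. For Enpp6 the 5 closest were Tmem88b (r = 0.850), Ermn (0.781), Car2 (0.780), Septin4 (0.766) and A230001M10Rik (0.748). For Gpr17 they were Slc1a3 (0.841), Ddn (0.784), Chd3 (0.770), Plpp3 (0.766) and Slc6a11 (0.762). Spearman's rho with Gpr17 was lower for each, at 0.651, 0.688, 0.752, 0.677 and 0.696 in the same order. For Pdgfra they were Amot (0.770), Hbegf (0.770), Rcan3 (0.764), Mlc1 (0.744) and Plxnb1 (0.743). None of the 15 was among the 10 members.

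The rest of the lineage moved with genotype in a minority of its genes. Of 20 other precursor and pan-lineage genes, 4 rose and 1 fell in E4/4 mice, with a median of 0.00, beside 10.9% of all genes higher and 12.2% lower. Lhfpl3, which single-cell studies use as a precursor marker, had 35.4 ± 8.78 CPM in E4/4 and 21.2 ± 5.68 CPM in E3/3 mice (SD, n = 16 each), a log2 difference of 0.76 (adjusted p = 0.000179). It was the 1 gene of the list named here that also passed in the deeper libraries alone (0.89, adjusted p = 0.0152). Pcdh15, a protocadherin, rose by 0.31 and the proteoglycan Vcan by 0.26, while Cspg5 fell by 0.14 on the log2 scale. With GC and length trends removed, the Vcan difference was 0.16 (adjusted p = 0.100) and its call was lost.

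Of 20 other committed and newly formed genes, 4 rose and 1 fell, with a median of 0.04, beside the same 10.9% and 12.2% of all genes. Tns3, a tensin of newly formed oligodendrocytes, had 64.8 ± 5.35 CPM in E4/4 and 57.8 ± 5.69 CPM in E3/3 mice (0.16, adjusted p = 0.00858), and Tmem163 rose by 0.34. Casr, the calcium-sensing receptor, rose by 1.85, with 0.259 ± 0.299 CPM in E4/4 and 0.0648 ± 0.0759 CPM in E3/3 mice, and Lims2 fell by 0.19 on the log2 scale. Both calls were lost with a term for depth class, at 1.67 for Casr (adjusted p = 0.0854) and -0.15 for Lims2 (adjusted p = 0.102), and Casr had 1.08 in limma-voom (adjusted p = 0.235), while Lims2 had -0.0762 in the deeper libraries alone (adjusted p = 0.579). They held in 28 and 29 of 32 fits without 1 library, and with the depth term the list had 2 calls in place of 5.

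Of 28 mature myelin genes, 7 rose and none fell, with a median of 0.10, beside the same 10.9% and 12.2% of all genes. Aspa, which splits N-acetylaspartate, had 24 ± 2.65 CPM in E4/4 and 19 ± 3.48 CPM in E3/3 mice (SD, n = 16 each), a log2 difference of 0.34 (adjusted p = 0.000482). Ugt8a, which makes galactosylceramide, rose by 0.36 and Tspan2 by 0.24. With GC and length trends removed, Ugt8a had 0.19 (adjusted p = 0.0255), and Tspan2 lost its call at 0.11 (adjusted p = 0.132). In the deeper libraries alone 1 of the 28 was called.

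Partners of the members were counted in the same way, beside the same 10.9% of all genes higher and 12.2% lower in E4/4 mice. Of 5 PDGF ligands and receptors, the group of Pdgfra, the ligand Pdgfd rose by 0.42 and the ligand Pdgfb fell by 0.16 on the log2 scale. Both calls were lost with GC and length trends removed, and Pdgfb was called in 19 of 32 fits without 1 library. Of 8 ligands and partners of Ptprz1, the matrix protein Tnc rose by 0.50, with 3.92 ± 0.879 CPM in E4/4 and 2.74 ± 0.992 CPM in E3/3 mice, and Ncan fell by 0.14 on the log2 scale, a call made in 8 of 32 fits without 1 library.

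Of 22 genes of BMP signalling, 8 rose and 1 fell, beside 10.9% of all genes higher and 12.2% lower, with a median of 0.14. The type I receptor Bmpr1a had 49.0 ± 2.90 CPM in E4/4 and 40.1 ± 3.83 CPM in E3/3 mice (0.29, adjusted p = 7.04e-05). The type II receptor Acvr2a rose by 0.39, the signal carrier Smad5 by 0.32, and the secreted antagonist Grem1 by 0.87 (adjusted p = 0.000176). In the deeper libraries alone Grem1 kept its call (0.98, adjusted p = 0.0251). Bmpr1a, Acvr2a and Smad5 lost theirs there, with adjusted p of 0.0598, 0.068 and 0.0931. Of 15 Wnt and beta-catenin partners and targets, the group of Tcf7l2, 4 rose and 4 fell. Ctnnb1, which is beta-catenin itself, rose by 0.22 (adjusted p = 0.000215). Apc, part of the complex that targets beta-catenin for destruction, rose by 0.27, while the co-activator Bcl9 fell by 0.25 on the log2 scale. The receptor Lgr5 rose by 1.16, a call lost with a term for depth class.

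Of 15 choline and glycerophosphocholine genes, the group of Enpp6, 5 rose and 2 fell. Chpt1, which makes phosphatidylcholine, had 44.5 ± 4.73 CPM in E4/4 and 35.0 ± 5.34 CPM in E3/3 mice (0.35, adjusted p = 0.000166), and Pnpla6, which breaks it down, fell by 0.10 on the log2 scale, in 24 of 32 fits without 1 library. With a term for depth class the list had 2 calls in place of 7. Of 11 sialidases and sialyltransferases, the group of Neu4, St8sia4 rose by 0.45 and 3 fell, among them the lysosomal sialidase Neu1, by 0.18 on the log2 scale. Of 8 genes of calcium release, the group of Itpr2, the ryanodine receptor Ryr3 rose by 0.46 (adjusted p = 0.0429), which held in 14 of 32 fits without 1 library.

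Genes of other cells and regions were counted for genotype too, beside 10.9% of all genes higher and 12.2% lower in E4/4 mice. Of 15 neuron genes, 3 rose and 9 fell in E4/4 mice, with a median of -0.24 and sums of 11700 to 16400 CPM in E4/4 and 12000 to 17200 CPM in E3/3 libraries. Of 14 olfactory bulb and neuroblast genes, 9 rose and none fell, with sums of 300 to 1160 CPM in E4/4 and 313 to 661 CPM in E3/3 libraries, and of 11 hypothalamus genes 7 rose and 1 fell. Of 15 astrocyte genes, which share a cell type with Ptprz1 and Itpr2, 3 rose and none fell, with sums of 4890 to 5780 CPM in E4/4 and 3960 to 6450 CPM in E3/3 libraries. Of 12 pericyte and smooth muscle genes 1 fell, of 15 microglia genes 4 rose, of 12 endothelium genes 2 rose and 2 fell, and of 14 choroid plexus genes 2 rose. The part of the dissected region and of these cells in the genotype differences of the 10 genes was not tested.

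With D4F in E3/3 mice the lists were counted in the same way, beside 1.81% of all genes higher and 1.44% lower. Of 20 other committed and newly formed genes none passed in edgeR, and DESeq2 called 1 and limma-voom 0. An unadjusted p below 0.05 in edgeR was found for 4 of the 20, near the 19.5% of all genes. Of 15 Wnt partners and targets 4 fell, with a median of -0.29: Lef1, a partner of beta-catenin like Tcf7l2 that the thalamus list holds too, by 0.50, Bcl9l by 0.34, and Nkd1 and Bcl9 by 0.30 each on the log2 scale. All 15 astrocyte genes lay below 0, with 2 called and a median of -0.19. Of 12 endothelium genes 4 fell as well, with a median of -0.24. DESeq2 and limma-voom called 5 and 1 of the Wnt genes, 6 and 1 astrocyte genes, and 5 and 2 endothelium genes. Since no gene was called in edgeR with depth class as a term, each of these edgeR calls was lost there.

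**Figure D5:**
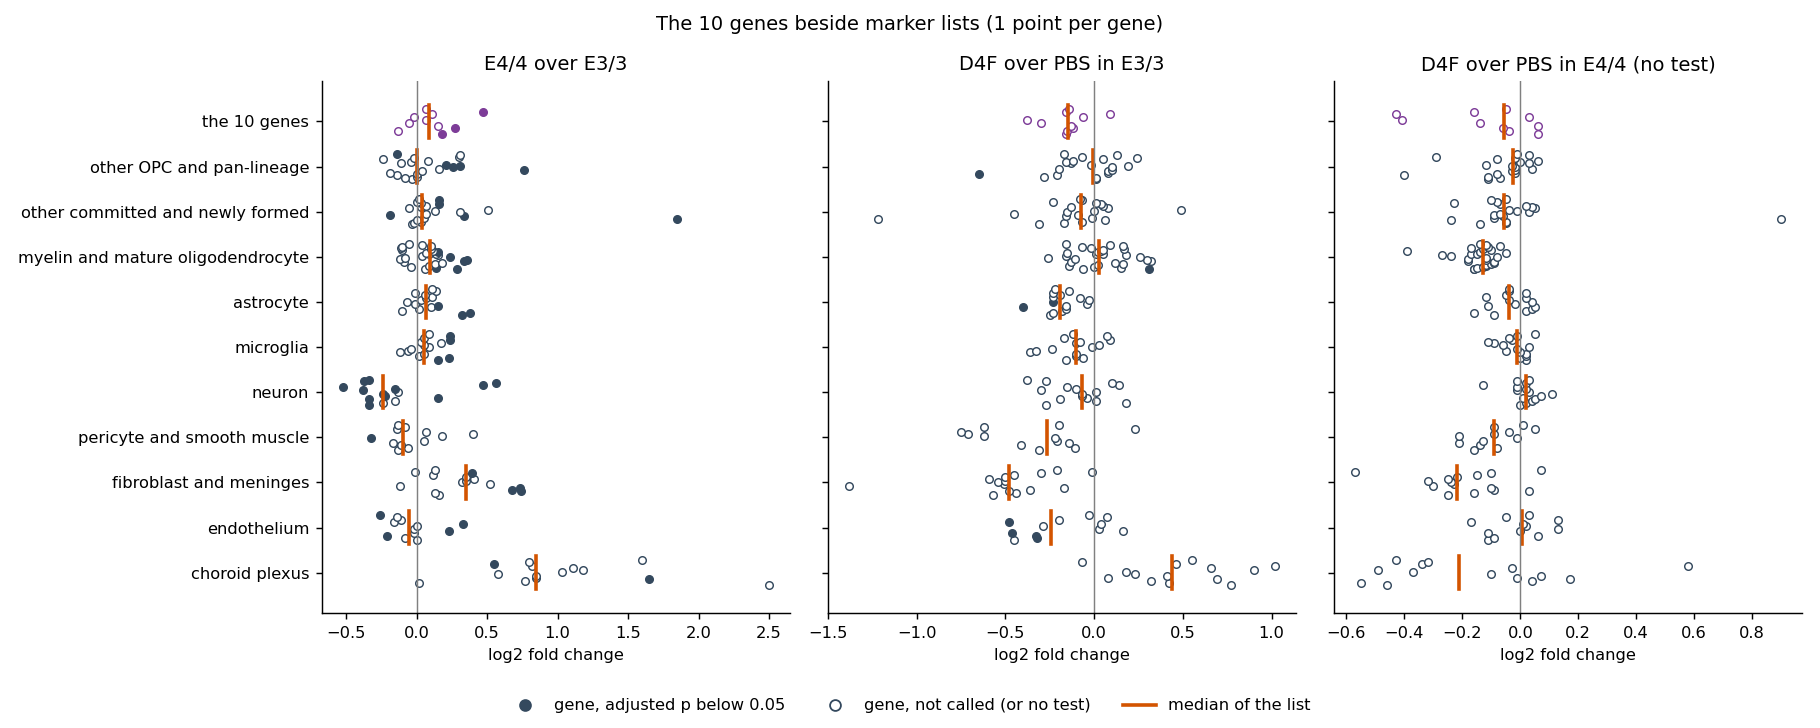
Log2 fold change of each gene of 10 cell type lists and of the 10 members, with 1 point per gene, filled where called, and a vertical bar for the median of each list, for E4/4 over E3/3, D4F over PBS in E3/3 and D4F over PBS in E4/4 mice (no test). Fibroblast genes lie mostly above 0 for genotype and below 0 for D4F in E3/3 mice, with medians of 0.35 and -0.48. Myelin genes, which move with Enpp6 within groups, all lie below 0 for D4F in E4/4 mice, the comparison in which Enpp6 was chosen.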

How the data were processed

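Raw counts per gene name were deposited for 32 libraries from 32 mice. Per the submitters' processing notes the tools were Trimmomatic, HISAT2 and featureCounts with the build GRCm38, and their versions, the annotation and the strand setting were not stated there, so reads of overlapping or antisense genes may not be separated. From the authors' counts, edgeR 4.0.16 (R 4.3.3) was used throughout: filterByExpr (minimum count 10, minimum total 15) kept 20298 of 57010 genes, libraries were scaled by TMM, and a robust quasi-likelihood model with 1 coefficient for each of 8 groups was fitted to all libraries. Every comparison was a two-sided contrast, averaged over sex apart from the 3 that compare the sexes, adjusted by Benjamini-Hochberg over all 20298 genes and called at an adjusted p below 0.05. CPM are TMM-scaled, log2 CPM use a prior count of 2, and p-values measure the spread between mice. Depth was 17.77 to 45.06 M counts per library. No 2 libraries of a group agreed within counting noise.

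Gene length, GC content and coordinates came from GENCODE M21. Alternatives were DESeq2 1.42.0, limma-voom (limma 3.58.1), RLE size factors, no filter, an additive sex term, a replicate block, and leaving out each library. A depth class term, the deeper libraries (above 26 M counts) alone, and removal of GC and length trends were also tried. Correlations used deviations from group means, permuted within groups.

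The 10 members, the 20 gene lists (297 symbols, 1 found under a newer name) and the tests were chosen with earlier results of these data known. All 10 members entered every comparison. The main values of some members are not printed for genotype within PBS mice, genotype under D4F, or the comparisons with sex. For each list, up to 4 called genes with the smallest p for genotype over both treatments were named, apart from results that are not reported here. Markers with the highest r were named for Enpp6, Gpr17 and Pdgfra, 5 each. Genes named for D4F in E3/3 mice, and single genes named from the marker lists for r, were chosen after their values were seen.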

Additional observations from a re-analysis of the deposited data

Results flagged for a closer look

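Within groups of 4 mice, 8 of 80 combinations of member and group held a library far from the other 3 by Dixon's ratio, where chance gives about 1 in 20, or 4. Of these, 3 were for Bmp4: 8.02 CPM in E3/3 female PBS 1, against 2.63 to 3.34 in the rest of its group, 3.71 CPM in E3/3 male PBS 2, against 1.97 to 2.18, and 3.51 CPM in E4/4 male D4F 3, against 2.62 to 2.77. Tcf7l2 stood at 7.36 CPM in E3/3 female PBS 1, against 3.78 to 4.37, in the same library as the highest Bmp4. Cspg4 was low in E4/4 male D4F 1, at 17.1 CPM against 21.8 to 22.7, and in E4/4 male PBS 4, at 18.2 CPM against 20.6 to 21.1. Neu4 was 10.6 CPM in E3/3 male PBS 1, against 8.45 to 8.76, and Ptprz1 was 104 CPM in E3/3 male D4F 1, against 119 to 123.

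The library E3/3 female PBS 1 also had the highest sums of pericyte and smooth muscle genes, at 551 CPM against 256 to 373 in the other 31 libraries, and of endothelium genes, at 523 CPM against 361 to 471. Col1a1, a collagen of fibroblasts, was 22.5 CPM there, against 3.38 to 10.9. Lists of other kinds were extreme there too. Its microglia sum was the highest, at 761 CPM against 514 to 731. Its sums were the lowest for choline genes, at 793 CPM against 852 to 1200, and for calcium release genes, at 1360 CPM against 1400 to 2370. The part of vessel and meningeal cells in its Bmp4 and Tcf7l2 levels was not tested.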

How the results depend on the processing

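For genotype over both treatments, Ptprz1 and Tcf7l2 kept their calls in every fit but that of the deeper libraries alone, and Pdgfra lost its call under 4 settings. All differences below are log2. With depth class as a term, 2849 genes were called for genotype over both treatments, 0 for D4F in E3/3, 1286 for genotype in PBS mice (0 of 9 members) and 27 for genotype under D4F. In the deeper libraries alone those counts were 1266 (0 members), 0, 4 (0 members) and 0. With GC and length trends removed, 2598 genes and 0 members were called in PBS mice. DESeq2 called 1359 genes for D4F in E3/3, 23 for sex, 198 (1 member) for genotype under D4F and 1 for sex by genotype. Without the filter there were 367 genes for D4F in E3/3 and 2 for genotype under D4F. Under D4F, RLE factors and limma-voom gave 0 and an additive sex term 15, and limma-voom called 2 members in PBS mice. The cause of these changes was not tested.

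Replicate numbers showed no clear pairing of the mice: same-numbered libraries had a mean r of 0.00761, against -0.00257 for other pairs. Of the same-numbered pairs, 30 of 112 were above 0.1, with no such count for the other pairs. In addition, 11 of 32 libraries correlated best with their own number. A weak or partial pairing cannot be told from these values. With a replicate block Pdgfra had 0.178 for genotype (adjusted p = 0.05, not called), 3 genes were called for genotype under D4F, and Tcf7l2 turned to 0.00482 in sex by genotype.

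Some values changed sign, among them Gpr17 and Bmp4 for D4F in E3/3, which lay furthest from 0 of the members there. In the deeper libraries alone, for genotype over both treatments Gpr17 was 0.13, Cspg4 0.0074 and Neu4 0.0536. There, for D4F in E3/3, Enpp6 was -0.178, Bmp4 0.11, Gpr17 0.139, Pdgfra 0.046 and Neu4 0.0142. For genotype in PBS mice Gpr17 was 0.293, Itpr2 -0.0111, Cspg4 0.0401, Neu4 0.065 and Sox6 -0.0426, and under D4F Bmp4 was -0.0789 and Gpr17 -0.0329. For sex Bmp4 was -0.0175 and Cspg4 -0.00557, in sex by genotype Tcf7l2 was 0.0624 and Ptprz1 -0.0214, and in sex by D4F Enpp6 was 0.0827, Gpr17 -0.299 and Ptprz1 -0.302. The deeper E3/3 PBS libraries were only female PBS 4 and male PBS 3. Deeper-library values that use E3/3 PBS mice thus rest on a single library of each sex. With depth class as a term Cspg4 was -0.00574 for sex and Itpr2 -0.0202 in PBS mice. With GC and length trends removed, Enpp6 was -0.0138 for genotype over both treatments, Cspg4 -0.00371 for sex, Sox6 -0.0199 in PBS mice, Neu4 -0.0154 under D4F, Gpr17 0.0145 and Cspg4 0.0438 in sex by genotype, and Ptprz1 -0.049 in sex by D4F. Without the filter Enpp6 was 0.00363 in sex by D4F.

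Leaving out 1 library at a time gave 3944 to 5280 genes and 2 to 4 members for genotype over both treatments. For D4F in E3/3 it gave 99 (without E3/3 male PBS 1) to 2188 genes (without E3/3 female PBS 4) and 0 to 1 members. It gave 0 to 2 members for genotype in PBS mice, 0 to 22 genes for genotype under D4F and 0 to 59 genes for sex by genotype. Among the tested comparisons, values that crossed 0 were Neu4 for genotype over both treatments (-0.0415 to 0.0173) and in PBS mice (-0.11 to 0.00288), and under D4F Bmp4 (-0.0559 to 0.168), Gpr17 (-0.0297 to 0.124) and Neu4 (-0.0153 to 0.0888). For sex they were Bmp4 (-0.0881 to 0.102), Gpr17 (-0.0258 to 0.0573) and Cspg4 (-0.02 to 0.0283). In sex by genotype they were Gpr17 (-0.127 to 0.0393), Tcf7l2 (-0.111 to 0.115) and Cspg4 (-0.0876 to 0.00352), and in sex by D4F Enpp6 (-0.129 to 0.127), Gpr17 (-0.024 to 0.335), Pdgfra (-0.171 to 0.0366), Sox6 (-0.149 to 0.05) and Ptprz1 (-0.0358 to 0.111). For D4F in E4/4, which has no test, Cspg4 ran from -0.0603 to 0.00645 and Neu4 from -0.0298 to 0.0857.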
